A study of Mus musculus with 2 samples.

Results

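The 9 genes described here store, move and sense iron: Fth1, Ftl1, Ncoa4, Slc40a1, Tfrc, Slc11a1, Slc11a2, Ireb2 and Aco1. They were found by symbol, tied to the rows of the gene tables by gene identifier, and all 9 had a row among the 55536 annotated genes. The RNA came from a nuclear preparation of bone marrow-derived macrophages, which are primary cells, here of the mouse strain C57BL/6J (the source label says nuclear fraction, the description nucleoplasmic). Before harvest the cells met Lipid A, the endotoxin moiety that activates TLR4, at 100 ng/ml for 12 h, went without it for 12 h, and met it again at 100 ng/ml for 60 min. Ribosomal RNA was depleted, and 2 libraries of this single group were sequenced, from 1 µg of RNA in replicate 1 and 500 ng in replicate 2. Both libraries carry the same donor identifier, so the spread between them may be technical, and replicate and RNA input cannot be told apart. Neither age nor sex of the animals was collected. With 1 group there is no contrast of conditions, and the values below are levels, differences in level between genes, and differences between the 2 libraries, with no test.

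Cells keep spare iron inside ferritin, a shell built of heavy and light chains, and the receptor NCOA4 carries ferritin to the lysosome when iron is needed. Iron enters bound to transferrin through the transferrin receptor, crosses vesicle membranes through carriers of the NRAMP family, and leaves through ferroportin; macrophages that digest old red cells are a main source of recycled iron. Control is largely after transcription. When iron is scarce, the iron regulatory proteins IRP1 and IRP2 bind a short RNA hairpin, the iron-responsive element, which blocks translation when it lies in the 5′ UTR and protects the RNA when it lies in the 3′ UTR.

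Because that hairpin divides the genes into groups, its sequence is shown first, as found in the annotated transcripts (GENCODE M21 on mm10). The pattern searched was a C, 5 bases, the loop CAGTGN in which N is not G, and 5 bases that pair with the first 5, with G pairing to T allowed, on the sense strand only. Capitals mark the 6-base loop, and each line gives 29 bases, written as DNA in transcript orientation.
Fth1: ttcctgcttcaaCAGTGCttgaacggaac
Ftl1: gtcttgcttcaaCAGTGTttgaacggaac
Slc40a1: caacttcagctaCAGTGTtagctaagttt
Tfrc copy 1: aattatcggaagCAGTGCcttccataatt
Tfrc copy 2: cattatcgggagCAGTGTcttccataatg
Tfrc copy 3: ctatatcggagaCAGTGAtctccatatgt
Tfrc copy 4: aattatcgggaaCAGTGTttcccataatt
Slc11a2: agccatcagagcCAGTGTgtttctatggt

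The Fth1 element lies at chr19:9982732-9982760 on the plus strand, in exon 1, in the 5′ UTR and 109 bases before the start codon. The Ftl1 element lies at chr7:45459779-45459807 on the minus strand, also in exon 1 and the 5′ UTR, 147 bases before the start codon. Between the ferritin chains 26 of the 29 letters were identical. The Slc40a1 element is at chr1:45925465-45925493 on the minus strand, in exon 1 and the 5′ UTR, 201 bases before the start codon, and shared 13 of 29 letters with each ferritin element.

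The Tfrc copies all lie in the 3′ UTR, in exon 19 on the plus strand, at chr16:32631219-32631247, chr16:32631598-32631626, chr16:32631663-32631691 and chr16:32631710-32631738. They begin 885 to 1376 bases past the annotated coding sequence, did not overlap, and shared 18 to 25 of 29 letters with one another. The Slc11a2 element, at chr15:100395153-100395181 on the minus strand, is in the 3′ UTR of 1 transcript, Slc11a2-205, in exon 16 and 34 bases past the annotated coding sequence. Only 4 of its 5 stem positions pair by the rule, whereas the elements of the other 4 genes pair at 5 of 5. With 5 of 5 pairs the pattern was found in transcripts of 4 of the 9 genes, against 332 of 55450 annotated genes (0.599%); with at least 4 of 5 it was found in 5 of the 9, against 2728 genes (4.92%). No such letters were found in the annotated transcripts of Slc11a1, Ncoa4, Ireb2 or Aco1. The pattern and the 9 genes were both chosen for their known part in iron control, so this contrast with all genes was set in advance and is not a test. A match describes letters and is not by itself a working element.

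**Figure D1:**
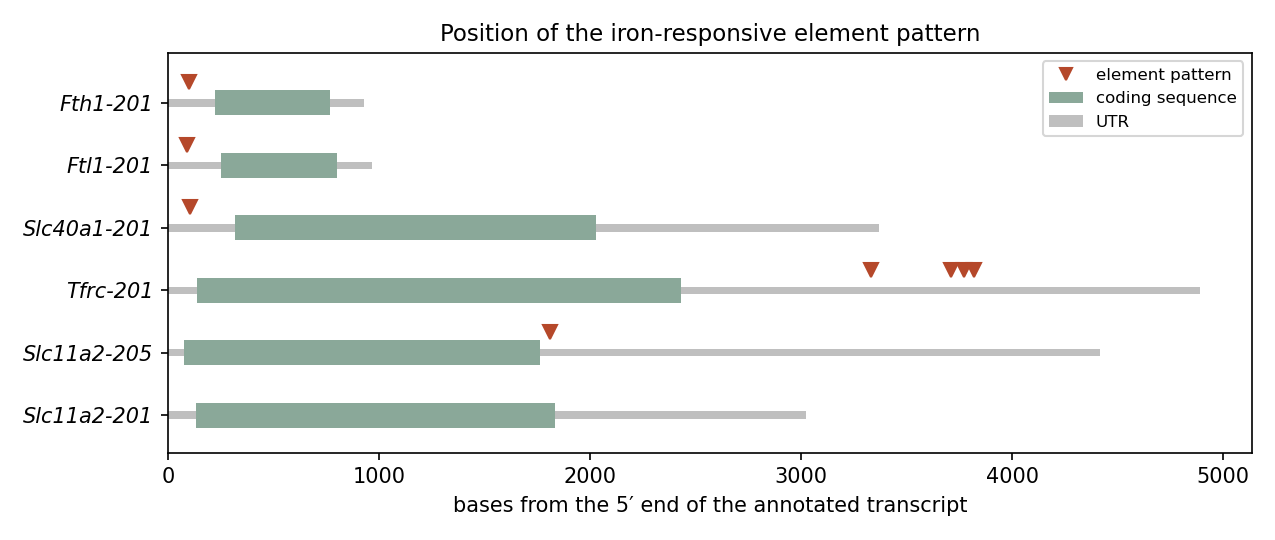
Position of the element pattern along 6 annotated transcripts, in bases from the 5′ end; thick bars are coding sequence, thin bars untranslated regions and triangles the elements. The pattern lies before the coding sequence in Fth1, Ftl1 and Slc40a1 and after it in Tfrc (4 copies) and Slc11a2-205, and Slc11a2-201 has none.

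Expected counts on annotated genes summed to 23630300 for replicate 1 and 15687600 for replicate 2, of which the 9 genes took 106369 and 52585. Expected counts are reads divided by estimate among transcripts, and TPM (transcripts scaled to a fixed total) corrects them for length. The labelled cell type was checked against markers: 8 of 8 macrophage markers stood at 10 TPM or more in both libraries (Lyz2 at 2211 and 1413 TPM, Adgre1 at 996 and 491 TPM, Csf1r at 295 and 225 TPM in replicates 1 and 2). None of 9 erythroid, 7 neutrophil or 6 hepatocyte markers reached 1 TPM in both. Erythroid markers summed to 1.63 TPM (replicate 1) and 1.10 TPM (replicate 2), led by Alas2 (0.95 and 0.63 TPM), Hba-a2 (0.12 and 0.38 TPM) and Epor (0.20 and 0.05 TPM), with Hbb-bt at 0. Neutrophil markers summed to 2.09 TPM (replicate 1) and 0.73 TPM (replicate 2), led by S100a9 (1.12 and 0.14 TPM), S100a8 (0.55 and 0.32 TPM) and Ngp (0.30 and 0.13 TPM), with Elane at 0. All hepatocyte markers were listed at 0.

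The ferritin chains dominated. Fth1 encodes the heavy chain, which oxidises iron as it enters the shell (chr19:9980598-9985098). It stood at 2601 TPM in replicate 1 and 1259 TPM in replicate 2 (1929.8 ± 949, SD, n = 2), which placed it 5th and 10th among 22015 protein-coding genes of the nuclear genome. Ftl1 encodes the light chain, which helps the iron core form (chr7:45457944-45459884). It stood at 1275 TPM in replicate 1 and 680.4 TPM in replicate 2 (978 ± 420.4, SD, n = 2), ranks 20 and 22. Fth1 was above Ftl1 in both libraries, by 1.03 on the log2(TPM + 0.1) scale in replicate 1 and by 0.89 in replicate 2 (mean 0.96 ± 0.10, SD, n = 2, or 1.94-fold). Together the chains made up 91.3% of the TPM of the 9 genes in replicate 1 and 88.6% in replicate 2, and 1.38% and 1.03% of the TPM of all nuclear protein-coding genes. Fth1 and Ftl1 were the members at 100 TPM or more in both libraries, a level reached by 1.37% of nuclear protein-coding genes, and Fth1 was at 1000 TPM or more, as were 0.0500% of them. Closest to Fth1 in level over both libraries were H2-D1, a class I histocompatibility gene (2734 and 1298 TPM), and the lysosomal proteases Ctsb (2751 and 1353 TPM) and Ctsd (2268 and 1283 TPM).

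Ncoa4, whose protein delivers ferritin to the lysosome (chr14:32159865-32179855), stood at 66.7 TPM in replicate 1 and 38.3 TPM in replicate 2 (52.5 ± 20.1, SD, n = 2). Its level was 35.7-fold below that of Fth1, a log2 difference of -5.28 in replicate 1 and -5.03 in replicate 2 (mean -5.16 ± 0.18, SD, n = 2). Counts without length correction put this difference at -3.69. The cargo receptor was thus ranked 743rd and 892nd where its cargo was among the 10 highest in both.

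Import genes stood above the exporter. Tfrc, the transferrin receptor (chr16:32608920-32632794), reached 80.5 TPM in replicate 1 and 73.2 TPM in replicate 2 (76.8 ± 5.18, SD, n = 2), the smallest spread relative to its mean among the 9 genes in the RSEM-format tables. That rank holds for TPM as deposited, whose median over nuclear protein-coding genes was 0.46 higher in replicate 1 (log2). In counts scaled between the libraries (below), Tfrc differed by -0.37, more than Aco1 (0.05), Ireb2 (-0.08) and Ncoa4 (0.23). Slc40a1, which encodes ferroportin, the known iron exporter (chr1:45908068-45926523), reached 10.3 TPM in replicate 1 and 13.05 TPM in replicate 2 (11.7 ± 1.94, SD, n = 2). Slc40a1 was below Tfrc by 2.95 on the log2 scale in replicate 1 and by 2.48 in replicate 2 (mean difference -2.72 ± 0.34, SD, n = 2), or 6.57-fold. Nearest to Slc40a1 in level were Fkbp1a (10.4 and 13.4 TPM), Cdk4 (10.5 and 13.4 TPM) and Tmem230 (10.8 and 13.2 TPM).

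The NRAMP carriers move iron and other divalent metals out of vesicles. Slc11a1, which encodes the phagosomal carrier of macrophages (chr1:74375195-74386062), reached 139 TPM in replicate 1 and 78.6 TPM in replicate 2 (109 ± 42.6, SD, n = 2). This is a level of RNA only. Whether the mouse strain used makes a working Slc11a1 protein was not tested, so the level does not show iron transport by this carrier. Slc11a2, the broadly expressed carrier DMT1 of the transferrin endosome (chr15:100387898-100425072), reached 50.4 TPM in replicate 1 and 29.9 TPM in replicate 2 (40.2 ± 14.4, SD, n = 2). Slc11a1 was the higher in both libraries, by 1.46 on the log2 scale in replicate 1 and 1.39 in replicate 2 (mean 1.43 ± 0.051, SD, n = 2), or 2.69-fold. This gap depends on the length correction, because counts that are not corrected for length put it at 0.21. It also includes isoforms not annotated as protein-coding. They held 51.4% of Slc11a1 TPM in replicate 1 and 52.1% in replicate 2, against 2.34% and 7.45% of Slc11a2 TPM. The gap is therefore not one between coding transcripts alone.

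The genes of both iron regulatory proteins were among the 3 lowest by mean TPM. Ireb2 encodes IRP2 (chr9:54863789-54912530) and reached 16.0 TPM in replicate 1 and 12.3 TPM in replicate 2 (14.2 ± 2.63, SD, n = 2). Aco1 encodes IRP1, which is the cytosolic aconitase when it holds an iron-sulfur cluster (chr4:40143081-40198338), and reached 6.26 TPM in replicate 1 and 4.95 TPM in replicate 2 (5.61 ± 0.926, SD, n = 2). Ireb2 exceeded Aco1 by 1.34 on the log2 scale in replicate 1 and 1.29 in replicate 2 (mean 1.32 ± 0.033, SD, n = 2), or 2.49-fold, and counts without length correction put it at 1.96. Aco1 was the lowest of the 9 genes in both libraries and the single one under 10 TPM in both.

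**Figure D2:**
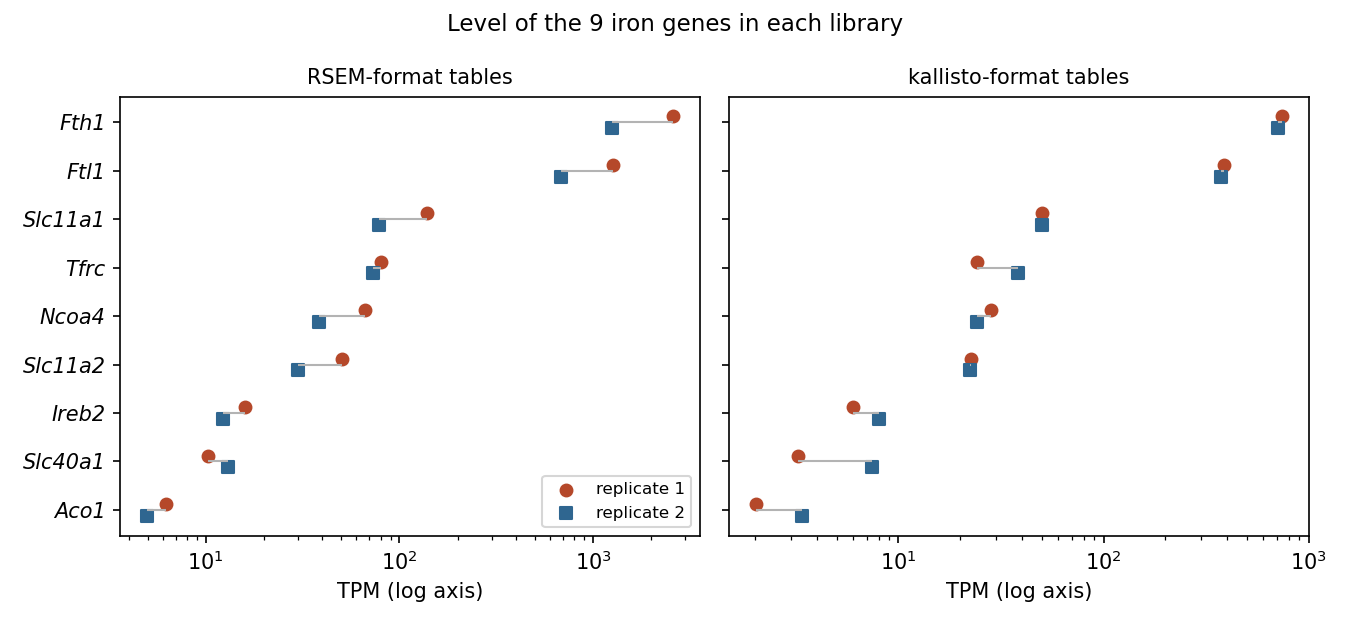
TPM of the 9 genes (log axis) in replicate 1 (circles) and replicate 2 (squares), from the RSEM-format tables (left) and the kallisto-format tables (right); lines join the libraries. Fth1 and Ftl1 lie far right of the other 7 genes in both panels, with Fth1 at 2601 and 1259 TPM on the left and 746 and 709 TPM on the right and Aco1 is lowest in both.

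All 9 genes were at 1 TPM or more in both libraries and 8 at 10 TPM or more, against 39.9% and 14.8% of nuclear protein-coding genes. By mean TPM the order was Fth1, Ftl1, Slc11a1, Tfrc, Ncoa4, Slc11a2, Ireb2, Slc40a1 and Aco1. Neighbours in that order were not all separated. Slc11a1 exceeded Tfrc by 0.79 on the log2 scale in replicate 1 and 0.10 in replicate 2 (mean 0.44 ± 0.48, SD, n = 2), and their deposited intervals overlapped in replicate 2. Ireb2 was above Slc40a1 in replicate 1 (0.63) and below it in replicate 2 (-0.09), so this pair changed order. The other 6 neighbouring pairs kept their order in both libraries, with deposited intervals apart in each. The Ncoa4 levels of 66.7 and 38.3 TPM include 21.4 and 10.95 TPM on Ncoa4-203. That form is 462 bases long and held 3.72% and 2.94% of Ncoa4 counts in replicates 1 and 2. Slc11a2 stood at 50.4 and 29.9 TPM, so the place of Ncoa4 above Slc11a2 depends on Ncoa4-203. The kallisto-format tables turned 1 of the 6 pairs in replicate 1, with Tfrc at 24.0 TPM and Ncoa4 at 28.3 TPM, but not in replicate 2, with 38.2 and 24.3 TPM. In the kallisto-format tables the levels were lower on another scale but the ferritins again led, with Ftl1 at 386 and 375 TPM, Slc11a1 at 50.2 and 49.9 TPM, Slc40a1 at 3.22 and 7.45 TPM and Aco1 at 2.01 and 3.39 TPM in replicates 1 and 2.

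Differences between the libraries were read from expected counts scaled by the trimmed mean of M values (TMM), as the log2 ratio of replicate 1 over replicate 2. None of the 9 genes was past 2-fold, where 8.58% of the 14038 genes averaging at least 10 counts were. All 9 averaged more than 100 counts, and of the 8676 genes averaging at least 100 counts 3.04% were past 2-fold. With so few genes, a count of 0 does not set them apart from genes at large. Fth1 was higher in replicate 1 (log2 ratio 0.59), from 56242 expected counts in replicate 1 and 24451 in replicate 2. Ftl1 was also higher in replicate 1 (0.50, from 25221 and 11681 counts), as were Slc11a2 (0.44, from 4244 and 2046 counts), Slc11a1 (0.41, from 4857 and 2398 counts) and Ncoa4 (0.23, from 3851 and 2143 counts). Aco1 (0.05) and Ireb2 (-0.08) had nearly equal levels in the libraries. Tfrc (-0.37, from 8375 and 7088 counts) and Slc40a1 (-0.74, from 861 and 938 counts) were lower in replicate 1, the exporter by 1.67-fold. Altogether 6 genes were higher in replicate 1 and 3 lower, with a median of 0.23, against -0.0008 over all genes tested. Macrophage markers ran the same way by TMM: 7 of 8 were higher in replicate 1, with Fcgr1 past 2-fold (1.19) and Cd14 lower (-0.22). They summed to 4358 TPM (replicate 1) and 2615 TPM (replicate 2) as deposited, a scale whose median was itself 0.46 higher in replicate 1 (log2). In TPM rescaled to nuclear protein-coding genes, Csf1r (1048 and 1199) and Cd14 (916 and 1180) were lower in replicate 1 and the other markers higher. The part of this marker shift in the values of the iron genes was not tested.

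The deposited TPM shows the split differently, because its median over nuclear protein-coding genes was itself 0.46 higher in replicate 1 on the log2 scale. On that scale Fth1 was past 2-fold (1.05), Tfrc was higher in replicate 1 (0.14) and Slc40a1 stayed lower (-0.34). The directions of Fth1, Ftl1, Slc11a1, Slc11a2, Ncoa4 and Slc40a1 were those given above in the 4 scalings run, which also included TMM on the kallisto-format counts and TPM rescaled to nuclear protein-coding genes. The direction of Tfrc turned with TPM as deposited, that of Ireb2 with TPM (0.38) and with kallisto-format counts (0.01), and that of Aco1 with rescaled TPM (-0.24). The authors' intervals for TPM, whose level is not stated and which bracket a posterior mean, were apart between the libraries for 6 of the 9 genes, against 49.2% of 8773 nuclear protein-coding genes at 1 TPM or more. They overlapped for Slc40a1, Tfrc and Aco1. For Fth1 the interval was 2469 to 2515 TPM in replicate 1 and 1193 to 1239 TPM in replicate 2, and the deposited TPM lay above it in both.

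**Figure D3:**
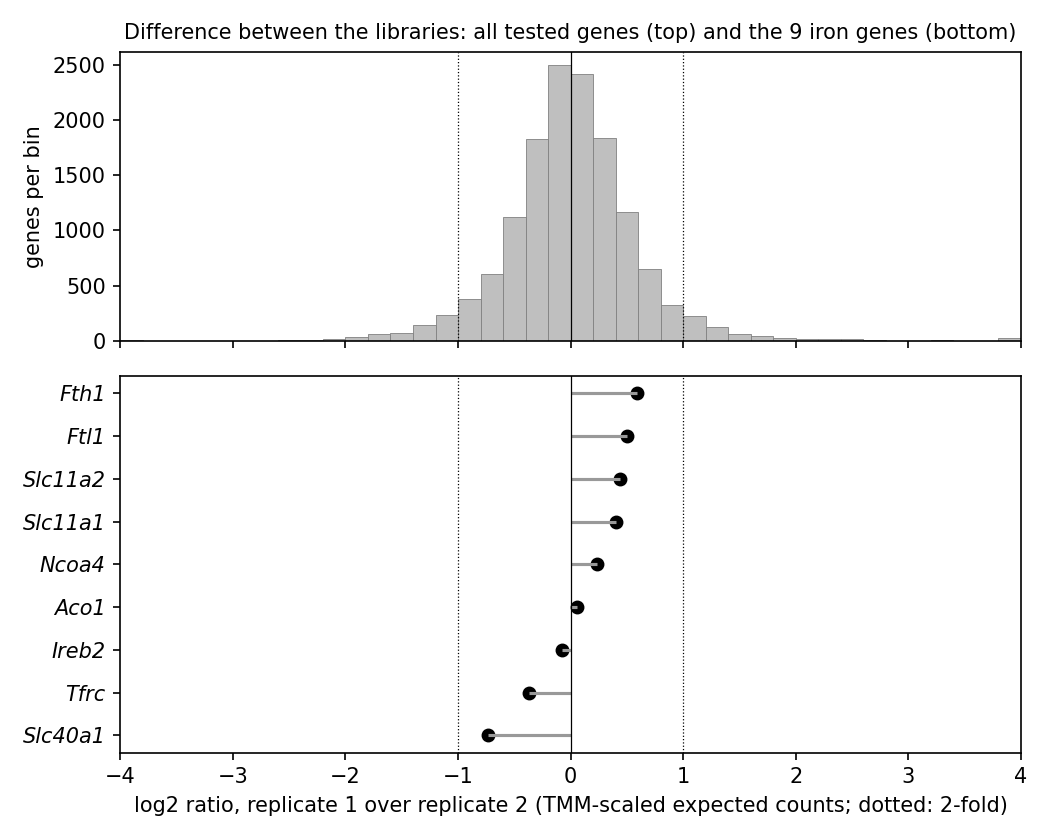
Log2 ratio of replicate 1 over replicate 2 in TMM-scaled expected counts, for the 14038 genes tested (top, bins of 0.2, with ratios beyond 4 in the outermost bins) and for the 9 iron genes (bottom); dotted lines mark 2-fold. The iron genes run from Fth1 at 0.59 to Slc40a1 at -0.74, all inside the dotted lines.

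Nuclear RNA holds unfinished transcripts, and the transcript tables divide each gene's counts among annotated isoforms, some of which are annotated as retained intron, nonsense-mediated decay or processed transcript and not as protein-coding. Fth1 had 32.5% of its expected counts on such isoforms in replicate 1, with a Wilson interval at 95% of 32.2 to 32.9, and 35.0% in replicate 2 (34.5 to 35.6), all of them retained intron. Most of these counts fell on Fth1-208, with 23.2% in replicate 1 and 25.6% in replicate 2, which keeps intron 1 of the 3 introns of Fth1-201, the 1197 bases at chr19:9982984-9984180. The spliced Fth1-201 held 67.3% in replicate 1 and 64.9% in replicate 2. Fth1-208 is 2062 bases long and Fth1-201 is 929. As shares of TPM, which corrects for length, Fth1-208 took 10.3% and 11.4% and Fth1-201 76.6% and 75.1% in replicates 1 and 2. Fth1-208 contains the element shown above, so 90.7% of Fth1 counts in replicate 1 and 90.5% in replicate 2 lay on isoforms with it. Among the isoforms without it, Fth1-202 (5.57% and 5.58%) is annotated from chr19:9982747, inside the element. Fth1-207 (3.39% and 3.61%) is annotated from chr19:9984147, beyond exon 1 of Fth1-201. The share thus depends on where annotated isoforms begin. The intervals cover counting error only, since reads without molecular identifiers are not independent molecules.

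By the annotated isoforms Ftl1 differed from its partner chain. Its retained-intron isoforms, Ftl1-205 and Ftl1-206, are 825 and 604 bases long, where Fth1-208 has 2062. The shares depend on which isoforms are annotated, and whether splicing differs between the genes was not tested. A total of 3.55% of its counts in replicate 1 (3.32 to 3.78) and 5.23% in replicate 2 (4.84 to 5.65) were on isoforms that are not protein-coding, and Ftl1-201 held 96.4% and 94.8%. The kallisto-format tables put 8.41% and 13.1% of Ftl1 counts on isoforms that are not protein-coding. Isoforms with the element held 97.0% of Ftl1 counts in replicate 1 and 95.1% in replicate 2. For Slc40a1, 5.87% in replicate 1 (4.43 to 7.57) and 6.87% in replicate 2 (5.38 to 8.62) were not protein-coding, and Slc40a1-201 held 94.1% and 93.1%. The element was on isoforms with 100% of Slc40a1 counts in replicate 1 and 99.6% in replicate 2.

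Tfrc had 24.2% of its counts on retained-intron isoforms in replicate 1 (23.3 to 25.1) and 30.0% in replicate 2 (29.0 to 31.1). Nearly all were on Tfrc-204 (23.9% and 29.8%), a form of 5 exons that starts inside the gene at chr16:32624442 and ends in the last exon with all 4 element copies. The last exon of Tfrc-204, chr16:32630094-32632790, lies within that of Tfrc-201, and no intron of Tfrc-201 was found whole in Tfrc-204. Its counts therefore do not measure the retention of an intron. Tfrc-201, of 19 exons, held 75.7% in replicate 1 and 70.0% in replicate 2. This division depended on the quantifier: the kallisto-format tables put 9.01% of Tfrc counts in replicate 1 and 16.1% in replicate 2 on Tfrc-204. By both, the share was lower in replicate 1.

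Slc11a2 was split between its 2 main forms. Slc11a2-205, which ends in the exon with the element, held 53.2% of counts in replicate 1 (51.7 to 54.7) and 51.1% in replicate 2 (49.0 to 53.3). Slc11a2-201, of 17 exons and with another last exon that lacks it, held 45.7% in replicate 1 (44.2 to 47.2) and 46.9% in replicate 2 (44.8 to 49.1). The kallisto-format tables gave 51.8% and 50.8% for Slc11a2-205. As shares of TPM, which corrects for its greater length of 4415 bases against 3025, Slc11a2-205 took 40.5% in replicate 1 and 35.2% in replicate 2. In all, 0.368% of Slc11a2 counts in replicate 1 and 0.866% in replicate 2 were on isoforms that are not protein-coding, and 2.01% and 2.10% by the kallisto-format tables; as TPM the share averaged 4.90%.

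The other carrier, Slc11a1, had 23.1% on such isoforms in replicate 1 (22.0 to 24.3) and 22.4% in replicate 2 (20.8 to 24.1), divided between retained introns (10.7% and 12.4%) and processed transcripts (12.5% and 9.99%). Slc11a1-201 held 76.1% in replicate 1 and 77.1% in replicate 2. As a share of TPM, which gives short isoforms more weight, the non-coding isoforms of Slc11a1 averaged 51.8%, against 22.8% of counts. For Ireb2 all non-coding counts fell on Ireb2-202, 13.7% in replicate 1 (12.3 to 15.2) and 18.3% in replicate 2 (16.4 to 20.4). This single-exon form of 3943 bases, at chr9:54902205-54906147, keeps intron 17 of 21 whole, the 99 bases at chr9:54903996-54904094. Those bases are a small part of it, so its counts do not measure the retention of that intron. Ireb2-201 held 86.1% and 81.7%. Aco1 had 0.642% in replicate 1 (0.272 to 1.78) and 2.47% in replicate 2 (1.32 to 4.67), and Aco1-201 held 99.4% and 97.5%. The mean non-coding share of Aco1 was 1.56% of counts, 3.79% of kallisto-format counts and 10.7% of TPM.

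Ncoa4 had 5.30% of its counts on isoforms that are not protein-coding in replicate 1 (4.63 to 6.05) and 5.73% in replicate 2 (4.83 to 6.81). Its coding counts came from isoforms with different first exons. Ncoa4-201, whose first exon is at chr14:32165791-32165822, held 76.2% in replicate 1 (74.8 to 77.5) and 66.4% in replicate 2 (64.4 to 68.4). Ncoa4-202, whose first exon lies upstream at chr14:32159865-32160010 and whose last exon runs further, held 13.8% in replicate 1 (12.8 to 14.9) and 24.4% in replicate 2 (22.6 to 26.3). The kallisto-format tables gave Ncoa4-202 4.72% and 15.9%, and put 12.9% and 8.79% on Ncoa4-206, a nonsense-mediated decay form that had 0 expected counts in both libraries. Their total on non-coding Ncoa4 isoforms was 18.4% in replicate 1 and 15.2% in replicate 2.

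Over the 9 genes the median non-coding share, as mean of the libraries, was 6.37%. Over 7340 nuclear protein-coding genes at 1 TPM or more with at least 1 such isoform annotated, the median was 13.7% and the quartiles 3.51% and 33.6%. By kallisto-format counts the medians were 12.3% for the 9 genes and 20.5% for the 7340, and as shares of TPM 11.1% and 26.8%. By expected counts Fth1 stood at percentile 75.2 of those genes, Tfrc at 68.7, Slc11a1 at 63.4 and Ireb2 at 54.3, with Slc40a1 at 34.1, Ncoa4 at 31.8, Ftl1 at 28.3, Aco1 at 16.7 and Slc11a2 at 11.2. Places above the median did not all hold. As shares of TPM Fth1 (24.0%) and Ireb2 (21.9%) were below the median of the 7340 genes. By kallisto-format counts Tfrc (13.0%) and Ireb2 (16.3%) were below it. Slc11a1 stayed above it by both (51.8% and 30.5%). The median over those genes was 12.2% in replicate 1 and 14.3% in replicate 2, so the lower share in replicate 1 seen for 8 of the 9 iron genes was also that of genes at large.

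**Figure D4:**
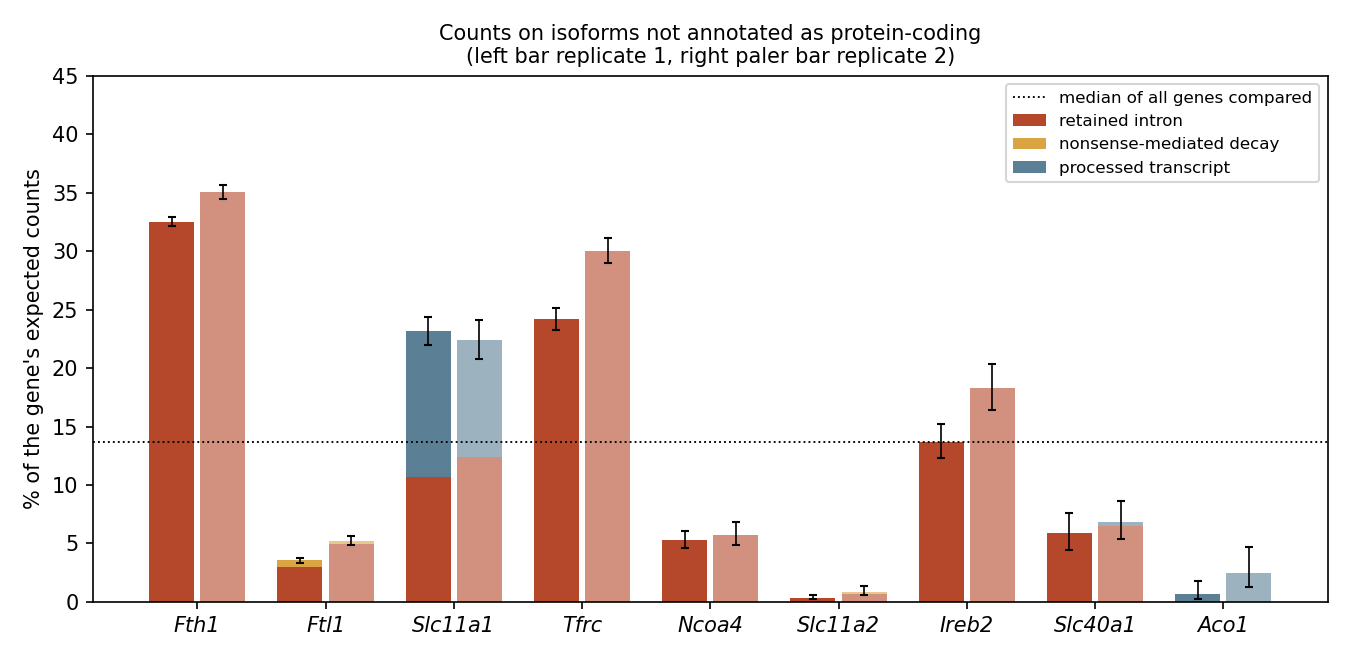
Percentage of each gene's expected counts on isoforms not annotated as protein-coding, by class; the left bar is replicate 1, the paler right bar replicate 2, whiskers are 95% Wilson intervals of the sum (counting error only), and the dotted line is the median of 7340 genes, 13.7%. Fth1, Tfrc, Slc11a1 and, by little in replicate 1, Ireb2 (13.7% and 18.3%) stand above the line in both libraries, and Ftl1, Ncoa4, Slc11a2, Slc40a1 and Aco1 below it.

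Near-identical copies can take or lend counts. Transcripts of 8 annotated genes at other loci matched Ftl1 at 90% identity or more over at least 200 bases, and they held 1.63% as many expected counts as Ftl1 in replicate 1 and 1.92% in replicate 2. Most were on Ftl1-ps1 on chromosome 13, which matched at 99.6% over 910 bases and had 395 and 216 expected counts. In the kallisto-format tables it had 149.6 and 32.2 counts, and Gm47428 on the same chromosome had 133.5 and 155.5, where its expected counts were 4.39 and 2.53. Fth1 had 1 such copy (Gm6977), with 3 counts in replicate 1 and 1 in replicate 2, and Slc11a1 had 1 (Gm4829) with 0 counts. The Ncoa4 copy, Gm6768, matched at 99.9% over 1878 bases and had 26.3 and 27.7 counts, or 0.684% and 1.29% of those of Ncoa4. None was found for Slc40a1, Slc11a2, Tfrc, Ireb2 or Aco1. Genes annotated across a member's locus held little: on the opposite strand Gm10252 had 0.360% and 0.121% of the counts of Ftl1, and Gm5475 had 2.14% and 1.27% of those of Slc11a2. On the same strand as Ftl1, Gm22133 had 0 and 3.67 counts.

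Beyond the 9, 53 other iron genes in 5 lists were looked up, and 32 stood at 1 TPM or more in both libraries, 15 at 10 TPM or more and 1 at 100 TPM or more. Of the 37 tested, 1 was past 2-fold between the libraries, beside 8.58% of all genes. It was Hp, which encodes haptoglobin, the carrier of free haemoglobin (1.18 TPM in replicate 1 and 0.58 TPM in replicate 2, log2 ratio 1.04), named after its value was seen.

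Of 10 genes of haem breakdown and transport, 7 were at 1 TPM or more in both libraries. Highest were Lrp1, the receptor of haem bound to haemopexin (305 and 226 TPM in replicates 1 and 2), Hmox1, the inducible haem oxygenase that frees iron from haem (31.8 and 21.9 TPM), and Flvcr1, a haem exporter (27.5 and 24.2 TPM). Of 10 genes of iron reduction, oxidation and other membrane carriers, 4 were at 1 TPM or more. Highest were Cp, the ferroxidase ceruloplasmin that works with ferroportin (84.2 and 39.2 TPM), Mcoln1, a lysosomal cation channel (28.7 and 30.3 TPM), and Steap3, an endosomal ferrireductase (5.87 and 6.43 TPM). Tfr2, Steap4 and Hephl1 were listed at 0 in both, although the kallisto-format tables gave Tfr2 0.826 and 1.76 TPM.

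All 8 genes of iron chaperoning and of control of the iron regulatory proteins were at 1 TPM or more in both libraries. Highest were the iron chaperone Pcbp2 (81.8 and 67.3 TPM in replicates 1 and 2), Herc2 (21.9 and 17.7 TPM), a ubiquitin ligase reported to act on NCOA4, and the chaperone Pcbp1 (24.7 and 14.9 TPM). Of 14 mitochondrial iron and iron-sulfur cluster genes, 10 were at 1 TPM or more. Highest were the mitochondrial iron importers Slc25a37 (54.8 and 45.4 TPM) and Slc25a28 (17.5 and 11.6 TPM) and the cluster assembly factor Isca2 (14.5 and 14.7 TPM), and the mitochondrial ferritin Ftmt was listed at 0. Of 11 genes for hepcidin, transferrin and secreted iron-binding proteins, 3 were at 1 TPM or more: Trf, which encodes transferrin (56.4 and 27.9 TPM), Hfe, a partner of the transferrin receptors (11.5 and 4.95 TPM), and Lcn2, which binds bacterial siderophores (9.33 and 5.10 TPM). The hepcidin genes Hamp and Hamp2 were listed at 0 in both libraries, as was Hfe2, the hemojuvelin gene. In bulk RNA, fewer cells that make an RNA and less of it per cell cannot be told apart.

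**Figure D5:**
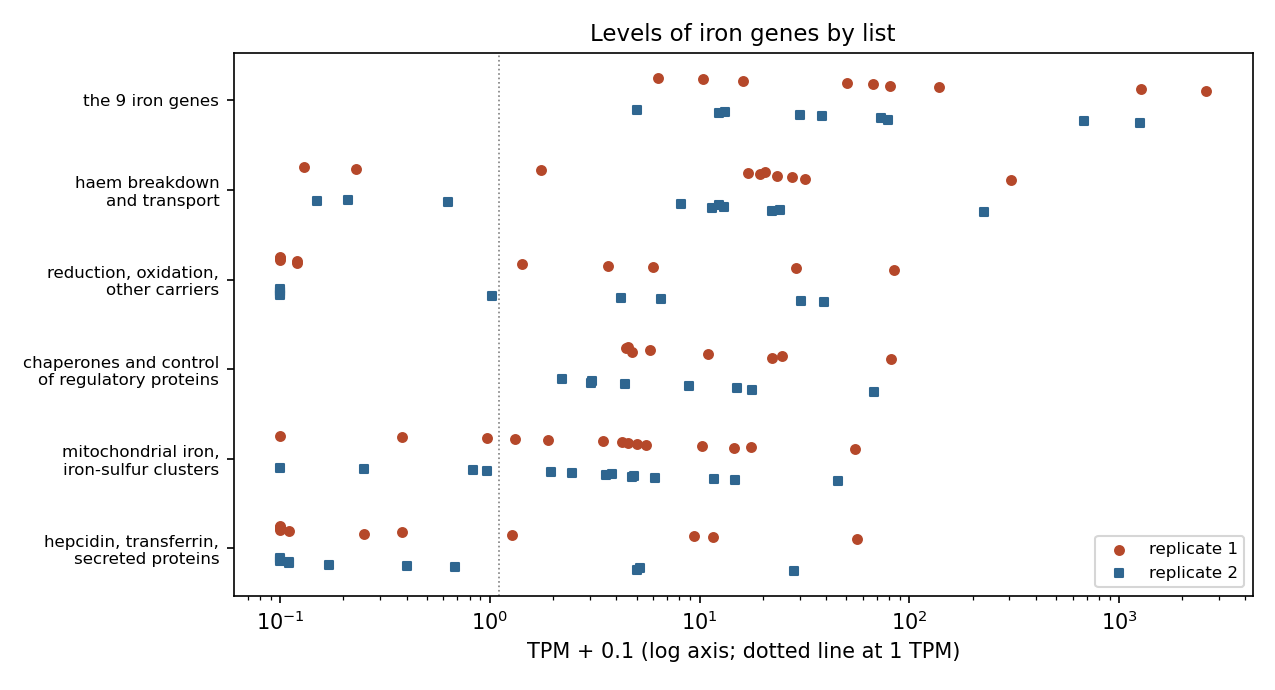
TPM + 0.1 (log axis) of the 9 iron genes and of the 53 other iron genes by list, in replicate 1 (circles, upper) and replicate 2 (squares, lower); each point is 1 gene and the dotted line marks 1 TPM. All 9 iron genes and all 8 chaperone and control genes lie right of the line, while 8 of the 11 genes of the secreted list fall left of it in at least 1 library.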

How the data were processed

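The authors deposited, for each of the 2 libraries, RSEM-format tables of genes and transcripts and a kallisto-format table of transcripts. Per the file headers, these hold expected counts (called estimated counts in the second format), TPM, a posterior mean TPM and the bounds of an interval for TPM, which were read as a non-negative signal with no stated level. Per the deposited readme files, genome mm10 and annotation GENCODE M21 were used. Not given in the sources used here are the aligner, tool versions and strand setting, and the tables can exchange counts between similar or overlapping genes. Rows that name no annotated gene, such as spike-in controls, were left out. Some expected counts were not whole and were rounded only for scaling.

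All 55536 gene rows matched M21, which gave symbols, classes and coordinates. The 9 genes, the pairs compared, the 5 other iron lists and the 4 marker lists were chosen with earlier results of these data known. Of the 53 other iron genes, 3 were matched by another name (Trf, Hfe2, Narfl). Levels of different genes were compared as log2(TPM + 0.1). Expected counts were scaled by TMM in edgeR 4.0.16 (R 4.3.3, prior count 0.5) over genes averaging at least 10 counts, in steps tested on simulated data. With 2 libraries of 1 group no p-value was computed. Shares of counts carry Wilson intervals at 95%, and 0 counts allow up to 3, for counting error only. The element and copy searches (BLAST+ 2.17.0, 90% identity over 200 bases) were chosen after the data were seen. The genes named are the 9, the 3 highest of each other list with up to 3 of those below 0.1 TPM in both libraries, isoforms with 10% or more of a gene's counts, and the 3 genes nearest in level to Fth1 and to Slc40a1 (1 gene from a marker list is not reported here). Fcgr1, Cd14, Hp, the copies and the overlapping genes were picked after their values were seen. Alternatives covered the second format, the posterior mean, pseudocounts of 1 and 0.01 TPM, counts without length correction, DESeq2 1.42.0 size factors, other filters and scalings, and each library alone. Python 3.11.15 ran the rest, with pandas 2.3.3, numpy 2.4.6, scipy 1.17.1 and matplotlib 3.10.9.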

Additional observations from a re-analysis of the deposited data

Results flagged for a closer look

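Processed pseudogenes of ferritin carried counts that the comparisons of levels above did not use. Of those named here, Ftl1-ps2 was among the copies of Ftl1 summed above, and Fth-ps2 and Fth-ps3 were not among the copies. The kallisto-format tables gave Fth-ps2 57.0 counts in replicate 1 and 53.0 in replicate 2, above the 3 counts that a count of 0 allows, where its expected counts were 22 and 15. Fth-ps3 had 6.00 counts in replicate 1 but 1.00 in replicate 2 (expected counts 2 and 1), and Ftl1-ps2 had 2.01 and 5.87 (expected counts 0 in both). Each passed the limit in at least 1 library, and whether these reads came from the parent genes was not tested.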

How the results depend on the processing

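The 5 differences between paired genes kept their direction under the alternatives run, each library alone included. Ireb2 and Slc40a1 changed order between the libraries, and Tfrc and Ncoa4 in replicate 1 of the kallisto-format tables. Counts without length correction moved all 5 pairs: Fth1 minus Ftl1 to 1.11, Slc40a1 minus Tfrc to -3.10, Slc11a1 minus Slc11a2 to 0.21, Ireb2 minus Aco1 to 1.96 and Ncoa4 minus Fth1 to -3.69 (log2); these pairs differ in length, which the alternative leaves in. The kallisto-format tables gave 1.15 for Slc11a1 minus Slc11a2, 1.37 for Ireb2 minus Aco1 and -4.79 for Ncoa4 minus Fth1, and the posterior mean gave 1.21 and a pseudocount of 1 TPM 1.19 for Ireb2 minus Aco1, whose spread was small. The median non-coding share was 12.3% by the kallisto-format tables and 11.1% as a share of TPM; the cause was not tested. Rescaling TPM to nuclear protein-coding genes alone put 6 of the 9 genes at 100 TPM or more in both libraries, by construction, since the rescaling raises every level. With TPM as deposited 1 of the 9 (Fth1) was past 2-fold between libraries.

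Over all genes, the count past 2-fold was 1204 of 14038 (600 higher in replicate 1 and 604 lower). It was 6354 of 21965 with no filter, 264 of 8676 with a mean of 100 or more counts, 2621 of 22299 by the kallisto-format tables (863 higher and 1758 lower), 1848 with TPM as deposited (1675 higher and 173 lower) and 1409 with rescaled TPM (470 higher and 939 lower). The median over nuclear protein-coding genes, replicate 1 over replicate 2, was 0.03 by TMM, 0.46 for TPM, -0.11 for rescaled TPM and -0.38 for kallisto-format TPM (log2). Shares for single genes moved by more than the spread in 24 of 28 comparisons with another quantity or quantifier. No paired analysis was possible because there is 1 group. Depth limits Aco1 (573 and 361 expected counts) and Slc40a1 most, and genes listed at 0.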
